A study of Homo sapiens with 9 samples.

Results

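Ribonucleotide reductase and the enzymes that supply and remove deoxyribonucleotides (dNTPs) were followed through 10 genes, RRM1, RRM2, RRM2B, SAMHD1, TK1, TK2, DCK, DGUOK, TYMS and DUT, out of 64253 gene identifiers in the count files. They were taken by symbol from the authors' deposited table, where each symbol had a single identifier, and all 10 passed the filter on low counts that left 16561 genes for testing. The cells were IMR90, a line of human fetal lung fibroblasts, kept in 2% oxygen and infected at population doubling 30. There were 9 libraries in 3 groups of 3, with replicates named a, b and c. Control cells carried pLKO.1 lentiviral vector in both rounds of infection, called empty in the sample labels and GFP in the treatment protocol. The shRRM2 cells carried a hairpin against RRM2 followed by the vector, and the labels call them senescent. The shRRM2/shp16 cells carried the RRM2 hairpin followed 24 hours later by a hairpin against p16 (CDKN2A), and the labels call them a senescence bypass. All groups were selected with 3 ug/mL puromycin for 7 days. The labels name a single hairpin per target, no group had the p16 hairpin alone, and separate infections per replicate are not stated. The p-values then measure the spread between these samples, which may be technical.

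Ribonucleotide reductase converts ribonucleotides into deoxyribonucleotides. RRM1 is its large subunit, with the active site and the allosteric sites, and RRM2 or RRM2B is the small subunit, which carries the tyrosyl radical. RRM2 is made in S phase and degraded in mitosis, while RRM2B serves cells outside S phase and the mitochondrial DNA. Thymidylate is made from dUMP by TYMS, and DUT supplies that dUMP by hydrolysing dUTP. TK1 and DCK salvage deoxynucleosides in the cytosol, TK2 and DGUOK do so in mitochondria, and SAMHD1 breaks dNTPs down.

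In shRRM2 cells the 2 largest falls among these genes were RRM2, to 12.8% of control, and TK1, to 41.5%, and RRM2B rose to 222%. In shRRM2/shp16 cells RRM2 stood at 36.5% of control, while TYMS, DUT and DCK stood between 47.2% and 54.9% of control. Of the mitochondrial kinases, TK2 rose in shRRM2 against control and DGUOK did not pass the test there. Levels are given as CPM, a count scaled to library size with TMM normalization factors, and differences as log2 fold changes with their standard errors from edgeR's quasi-likelihood test. The threshold was a Benjamini-Hochberg adjusted p of 0.05 over all tested genes.

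The stretches of 250 bases before the annotated starts are shown for 8 of the genes, with letters of the E2F type marked. E2F factors drive S phase genes in many cell types, and their part in these changes was not tested. The sequences are RefSeq's, on GRCh38.p14, written 5′ to 3′ on the gene's strand. Capitals mark matches on either strand to the E2F type letters TTCCCGC, or TTCGCGC, or else TTGCCGC, or finally TTGGCGC, to the box CCAAT, or to the CHR type letters TTTGAA, or else to TTCGAA. Where a gene had several starts, the one with the most matches to E2F type letters is shown. The start of RRM2 that is not shown had no such match and 3 of CCAAT. The starts of TK1 and DUT that are not shown had no match of any kind. SAMHD1, which also fell and had no E2F type letters, is not shown, so the stretches shown do not cover all genes that fell. No matches overlapped in the stretches shown.
RRM2, chr2:10122318-10122567, plus strand: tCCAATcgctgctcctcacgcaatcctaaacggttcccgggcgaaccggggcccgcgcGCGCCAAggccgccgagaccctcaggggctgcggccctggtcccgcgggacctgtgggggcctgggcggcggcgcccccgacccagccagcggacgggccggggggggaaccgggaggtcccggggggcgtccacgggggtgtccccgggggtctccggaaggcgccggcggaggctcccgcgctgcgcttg
RRM1, chr11:4094435-4094684, plus strand: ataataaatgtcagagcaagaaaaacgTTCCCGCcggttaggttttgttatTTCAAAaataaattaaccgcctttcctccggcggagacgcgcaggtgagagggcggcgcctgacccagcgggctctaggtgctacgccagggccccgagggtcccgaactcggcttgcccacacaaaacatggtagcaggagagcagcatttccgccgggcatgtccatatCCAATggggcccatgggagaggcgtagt
TK1, chr17:78187053-78187302, minus strand: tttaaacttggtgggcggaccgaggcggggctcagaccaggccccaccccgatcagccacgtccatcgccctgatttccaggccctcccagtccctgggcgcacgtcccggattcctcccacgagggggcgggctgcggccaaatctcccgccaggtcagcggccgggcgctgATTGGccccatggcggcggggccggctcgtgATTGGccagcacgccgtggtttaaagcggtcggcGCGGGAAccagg
TYMS, chr18:657403-657652, plus strand: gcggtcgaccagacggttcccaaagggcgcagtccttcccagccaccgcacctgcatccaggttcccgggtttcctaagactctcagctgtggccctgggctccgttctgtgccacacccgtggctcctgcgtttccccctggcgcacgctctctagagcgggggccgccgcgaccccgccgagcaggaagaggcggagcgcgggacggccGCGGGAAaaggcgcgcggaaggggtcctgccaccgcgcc
DUT, chr15:48331947-48332196, plus strand: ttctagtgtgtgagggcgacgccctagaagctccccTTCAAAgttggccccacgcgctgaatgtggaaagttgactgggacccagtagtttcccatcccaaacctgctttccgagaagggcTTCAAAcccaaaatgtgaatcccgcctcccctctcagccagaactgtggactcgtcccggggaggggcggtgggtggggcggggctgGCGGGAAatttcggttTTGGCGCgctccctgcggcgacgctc
DCK, chr4:70993399-70993648, plus strand: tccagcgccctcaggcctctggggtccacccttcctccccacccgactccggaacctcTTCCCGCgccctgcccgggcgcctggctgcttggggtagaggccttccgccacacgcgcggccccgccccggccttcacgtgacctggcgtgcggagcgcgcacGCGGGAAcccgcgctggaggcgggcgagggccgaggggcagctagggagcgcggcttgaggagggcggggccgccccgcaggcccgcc
TK2, chr16:66550123-66550372, minus strand: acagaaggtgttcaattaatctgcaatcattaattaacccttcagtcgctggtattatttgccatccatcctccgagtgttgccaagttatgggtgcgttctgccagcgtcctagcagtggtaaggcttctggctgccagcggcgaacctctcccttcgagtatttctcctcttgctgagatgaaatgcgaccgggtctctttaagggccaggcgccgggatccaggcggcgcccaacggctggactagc
DGUOK, chr2:73926630-73926879, plus strand: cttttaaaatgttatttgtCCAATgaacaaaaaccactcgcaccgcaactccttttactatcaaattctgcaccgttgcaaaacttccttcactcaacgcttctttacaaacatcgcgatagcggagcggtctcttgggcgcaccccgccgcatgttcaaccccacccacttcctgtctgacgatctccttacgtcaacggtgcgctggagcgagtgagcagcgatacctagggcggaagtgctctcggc

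Promoters of 9 of the 10 genes, with 14 starts in all, were in the RefSeq table. E2F type letters stood before at least 1 start of 6 of these genes, RRM1, RRM2, TK1, DCK, TYMS and DUT. The same letters stood before at least 1 start of 12.97% of all 27305 genes in the table, and before 10.9% of its 35116 starts. SAMHD1, TK2 and DGUOK had no such letters in this window. CCAAT stood in 5 of the 9 (37.0% of all genes) and the CHR type letters in 2 of the 9 (17.2%). The match is one of letters only, and genes with several starts had more chances of a match. RRM2 is the hairpin's target, so its fall in shRRM2 was set by the design. The other 5 genes with the E2F type letters were also lower in shRRM2 than in control, where 31.8% of all tested genes were, and so was SAMHD1, which had none.

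The genes lie on different chromosomes apart from RRM2 and DGUOK. In GENCODE release 29 on GRCh38, RRM2 (ENSG00000171848) spans chromosome 2 from 10120698 to 10131419 and DGUOK (ENSG00000114956) spans chromosome 2 from 73926826 to 73958961, both on the plus strand. RRM1 (ENSG00000167325) spans chromosome 11 from 4094707 to 4138876 on the plus strand, and RRM2B (ENSG00000048392) chromosome 8 from 102204502 to 102239118 on the minus strand. TK1 (ENSG00000167900) lies on the minus strand of chromosome 17 from 78174075 to 78187233, and TK2 (ENSG00000166548) on the minus strand of chromosome 16 from 66508003 to 66552544. DCK (ENSG00000156136) lies on the plus strand of chromosome 4 from 70992538 to 71030914, and TYMS (ENSG00000176890) on the plus strand of chromosome 18 from 657604 to 673578. DUT (ENSG00000128951) lies on the plus strand of chromosome 15 from 48331011 to 48343373, and SAMHD1 (ENSG00000101347) on the minus strand of chromosome 20 from 36889773 to 36951901. The values are whole-gene counts over exons, so the nuclear and mitochondrial forms of DUT are not separated.

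Gene counts per library ranged from 15770895 to 24873291, and the 10 genes were each covered by 332 to 11478 counts per library. The median coefficient of variation of their CPM within a group was 3.68% and the largest 8.26%. The share of uniquely aligned reads that fell in no annotated gene was 17.6% to 18.9% in control, 27.7% to 28.8% in shRRM2 and 23.5% to 24.4% in shRRM2/shp16. That share moved with the groups, and its part in the results was not tested. The 10 fibroblast markers summed to between 24463 and 28077 CPM of unscaled counts in every library. Of 6 epithelial markers, KRT5, KRT14, SFTPC and SCGB1A1 had at most 3 counts in every library, as had CDH5 of 4 endothelial and PTPRC and CD3E of 5 leukocyte markers. Summed, the epithelial list was at 0.965 to 2.23 CPM in all libraries, the endothelial list at 2.45 to 3.74 in control and shRRM2 and 5.41 to 5.58 in shRRM2/shp16, and the leukocyte list at 3.14 to 5.91. The 3 smooth muscle markers, which fibroblasts also express, summed to 715 to 723 CPM in control, 439 to 450 in shRRM2 and 249 to 255 in shRRM2/shp16, and their part in the results was not tested.

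RRM2, the target of the hairpin, was at 481, 491 and 484 CPM in control replicates a, b and c. It was at 59.98, 63.2 and 63.2 CPM in shRRM2 and at 181, 175 and 176 CPM in shRRM2/shp16. The 3 groups did not overlap, and control was highest and shRRM2 lowest. The log2 fold change against control was -2.96 ± 0.03 in shRRM2 (adjusted p 5.8e-45) and -1.45 ± 0.03 in shRRM2/shp16 (adjusted p 2.3e-36). Against shRRM2, the shRRM2/shp16 libraries were 1.51 ± 0.04 higher on the log2 scale (adjusted p 7.9e-34). RRM2 ranked 8 from the lowest fold change among the 16561 tested genes in shRRM2 against control, and it ranked 376 from the highest in shRRM2/shp16 against shRRM2. As a check of the other target, CDKN2A was at 5.95, 6.15 and 5.96 CPM in control, 6.79, 6.75 and 5.97 in shRRM2 and 4.33, 3.93 and 4.57 in shRRM2/shp16. In shRRM2/shp16 it was at 65.8% of the shRRM2 level (adjusted p 7.0e-05), while shRRM2 and control overlapped (adjusted p 0.43). By the authors' own test in their deposited table, CDKN2A in shRRM2/shp16 against shRRM2 is at -0.55 on the log2 scale and not called (q 0.237). Other transcripts of CDKN2A are counted together with p16.

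RRM2B moved in the opposite direction in both comparisons. It was at 36.4, 42.7 and 41.3 CPM in control, 91.7, 83.5 and 90.9 CPM in shRRM2 and 64.8, 70.0 and 65.3 CPM in shRRM2/shp16. Every shRRM2 library was above every shRRM2/shp16 library, and these were above every control library. The log2 fold change was 1.15 ± 0.05 in shRRM2 against control (adjusted p 2.9e-23) and -0.41 ± 0.05 in shRRM2/shp16 against shRRM2 (adjusted p 4.8e-10). It remained 0.74 ± 0.05 above control in shRRM2/shp16 (adjusted p 1.4e-16). When limma was run on the 9 deposited RPKM columns with a pseudocount of 0.1, the step from shRRM2 to shRRM2/shp16 was -0.24 and not past the threshold (adjusted p 0.0714, range over all alternatives 7.6e-18 to 0.122).

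RRM1 was at 199, 201 and 201 CPM in control, 111, 108 and 108 CPM in shRRM2 and 99.4, 95.5 and 95.1 CPM in shRRM2/shp16. The groups did not overlap, and the step from control to shRRM2 was the larger. Its log2 fold changes were -0.88 ± 0.03 in shRRM2 against control (adjusted p 1.4e-25), -0.17 ± 0.04 in shRRM2/shp16 against shRRM2 (adjusted p 6.1e-05) and -1.05 ± 0.03 in shRRM2/shp16 against control (adjusted p 7.5e-29). So RRM1 and RRM2 were both below control in shRRM2/shp16, but RRM2 was above its shRRM2 level there and RRM1 below it.

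**Figure D1:**
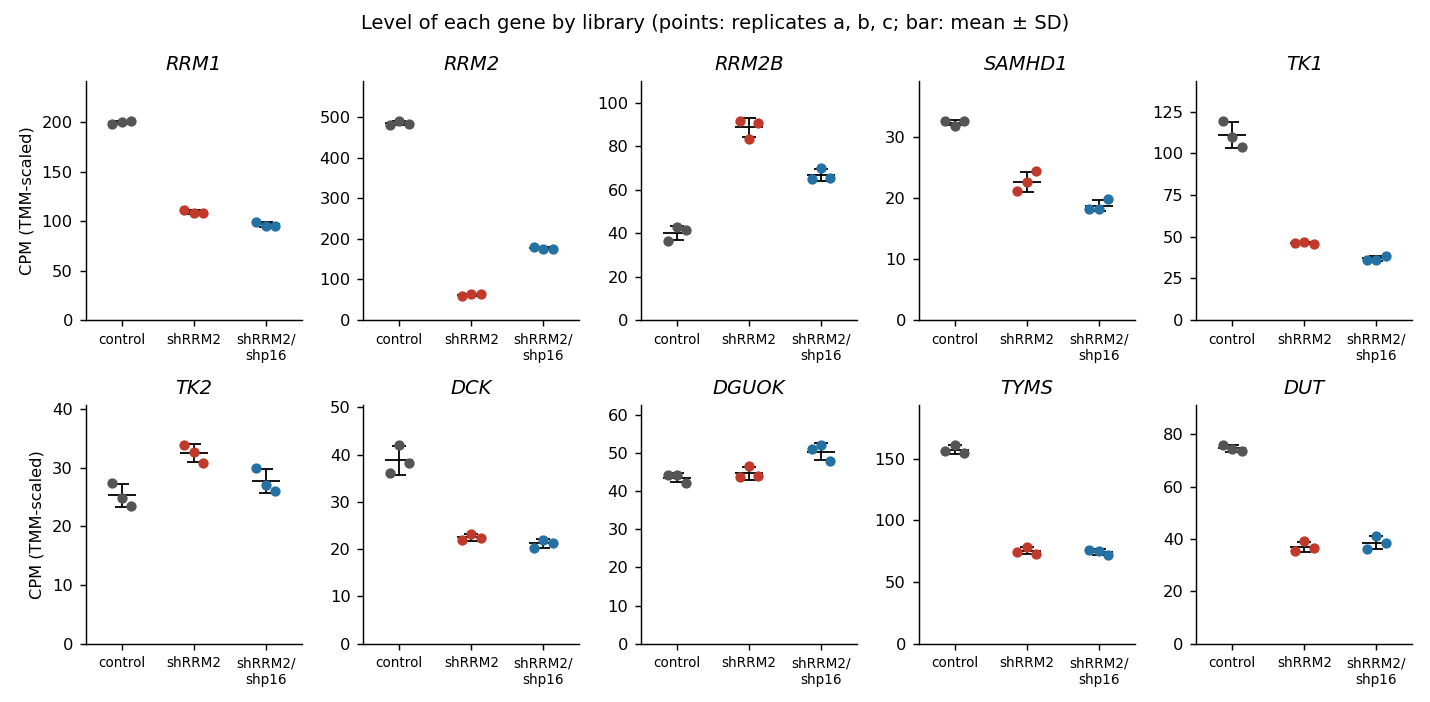
Level of each of the 10 genes in CPM (vertical axis, from 0) in control, shRRM2 and shRRM2/shp16 libraries (horizontal axis), with points for replicates a, b and c and bars for the mean ± SD. RRM2 falls to 62.1 CPM in shRRM2 and stands at 177 CPM in shRRM2/shp16, while RRM2B is highest in shRRM2, at 88.7 CPM.

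To compare subunits with each other, levels were put on a per-length scale, as RPKM from the counts with the gene length that the authors' table implies. These lengths were 4177 bases for RRM1, 4955 for RRM2 and 5548 for RRM2B. RRM2 was at 98.0 ± 1.06 RPKM in control, 12.5 ± 0.37 in shRRM2 and 35.8 ± 0.61 in shRRM2/shp16 (mean ± SD, n = 3 each). RRM2B was at 7.23 ± 0.60, 15.98 ± 0.82 and 12.01 ± 0.52 RPKM in the same order. In the counts RRM2B was thus above RRM2 per length in all 3 shRRM2 libraries and below it in the other groups. For shRRM2 replicate c this order is reversed in the authors' deposited RPKM column, which differs from the count file, and which of them is right could not be settled.

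The RRM2 share of the small-subunit transcripts, per length, was 93.7%, 92.8% and 92.9% in control replicates a, b and c. It was 42.3%, 45.9% and 43.8% in shRRM2 and 75.7%, 73.7% and 75.2% in shRRM2/shp16. No 2 groups overlapped. The mean share dropped by 49.1 percentage points from control to shRRM2, and shRRM2/shp16 minus shRRM2 was 30.9 points and shRRM2/shp16 minus control -18.3 points. The means were 44.0% ± 1.80 in shRRM2, 74.9% ± 1.07 in shRRM2/shp16 and 93.1% ± 0.47 in control (SD, n = 3). Each of these differences had an exact two-sided permutation p of 0.1, the smallest that 3 libraries against 3 can give. Since RRM2 was the hairpin's target, its part in this drop is a check of the knockdown.

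The small subunits together, RRM2 plus RRM2B, were at 105 ± 1.60 RPKM in control, 28.5 ± 0.68 in shRRM2 and 47.8 ± 0.39 in shRRM2/shp16. RRM1 per small-subunit transcript was 0.459, 0.450 and 0.459 in control, 0.931, 0.928 and 0.887 in shRRM2 and 0.495, 0.478 and 0.481 in shRRM2/shp16. The value in shRRM2 was thus well apart from the other groups, and shRRM2/shp16 was above control by 0.0288, with no overlap. All 3 differences again had an exact two-sided permutation p of 0.1, the smallest possible. RRM2, the hairpin's target, made up 93.1% of the divisor in control, so its part in the rise of this ratio in shRRM2 was set by the design. RRM1 itself was lower in shRRM2 than in control. These are transcripts per length, not proteins or assembled enzyme.

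**Figure D2:**
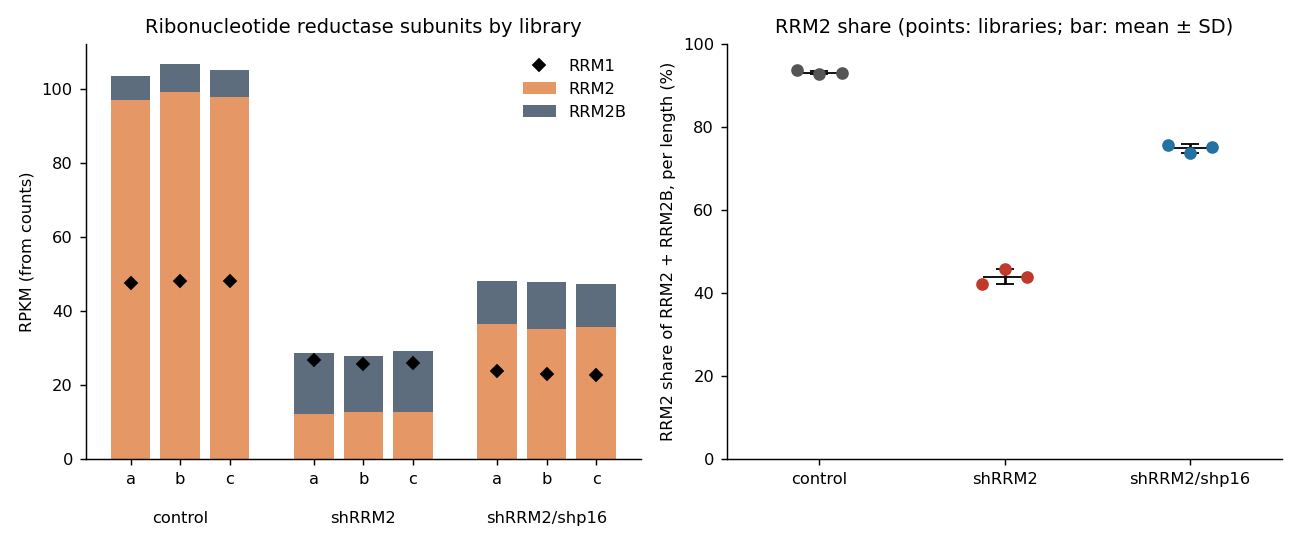
Left, RPKM per library (vertical axis) of RRM2 and RRM2B as stacked bars and of RRM1 as diamonds, for replicates a, b and c of each group. Right, the RRM2 share of RRM2 plus RRM2B per length in percent, with points for libraries and bars for the mean ± SD, at 93.1% in control, 44.0% in shRRM2 and 74.9% in shRRM2/shp16.

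The authors' log2 RPKM column for shRRM2 replicate c did not match its count file, and this touches RRM2 most of all 10 genes. That column matched the counts within 1% for 5.82% of well-counted genes, where the other 8 columns matched for 99.9% or more. For RRM2 it holds 30.1 RPKM where the count file gives 12.6, which is 2.38 times as much. The deposited RRM2B value there is 13.05 RPKM where the counts give 16.2. For the other 9 genes the deposited value was 0.804 to 1.32 times that from the counts, with RRM2B lowest and TK1 highest. With the deposited columns the mean RRM2 share in shRRM2 was 52.6%, which makes RRM2 the majority on average, and RRM1 per small-subunit transcript was 0.838. Levels and tests are from the count files unless the deposited values are named, and it is not settled which source is right for this library.

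TYMS, which makes thymidylate, was at 156, 161 and 154 CPM in control, 74.5, 78.3 and 73.0 CPM in shRRM2 and 75.7, 75.1 and 71.8 CPM in shRRM2/shp16. The treated groups overlapped each other and were both below control. The log2 fold change against control was -1.06 ± 0.04 in shRRM2 (adjusted p 1.1e-26) and -1.08 ± 0.04 in shRRM2/shp16 (adjusted p 1.4e-27). Between the treated groups it was -0.02 ± 0.04 (adjusted p 0.69). TYMS overlaps exons of ENOSF1 on the opposite strand, which was at 14.5 ± 0.90, 17.5 ± 0.34 and 24.4 ± 0.75 CPM in control, shRRM2 and shRRM2/shp16, and of TYMSOS, with 8 to 24 counts per library. The strand setting of the counting is not given in the sources used here, so reads of these genes cannot be told apart with certainty.

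DUT, the dUTP hydrolase, followed the same pattern. It was at 76.1, 74.4 and 73.7 CPM in control, 35.5, 39.2 and 36.6 CPM in shRRM2 and 36.1, 41.0 and 38.5 CPM in shRRM2/shp16. Its log2 fold change against control was -1.01 ± 0.05 in shRRM2 (adjusted p 1.2e-21) and -0.96 ± 0.05 in shRRM2/shp16 (adjusted p 1.5e-21), and 0.06 ± 0.05 between the treated groups (adjusted p 0.39). Of 8 DUT pseudogenes named in the table none had more than 2 counts, and of 3 RRM2 pseudogenes none more than 11. Reads that align equally well to such copies were not counted for any gene.

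TK1, the S phase thymidine kinase of the cytosol, was at 119.6, 110.0 and 103.7 CPM in control. It was at 46.1, 46.9 and 45.8 CPM in shRRM2 and at 36.3, 36.1 and 38.6 CPM in shRRM2/shp16. The groups did not overlap, and TK1 was lowest in shRRM2/shp16. It fell by a log2 fold change of -1.27 ± 0.05 in shRRM2 against control (adjusted p 4.8e-26), -0.32 ± 0.05 in shRRM2/shp16 against shRRM2 (adjusted p 1.9e-06) and -1.59 ± 0.05 in shRRM2/shp16 against control (adjusted p 7.6e-30).

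DCK, the cytosolic kinase of deoxycytidine and the purine deoxynucleosides, was at 36.1, 42.1 and 38.3 CPM in control, 21.96, 23.3 and 22.3 CPM in shRRM2 and 20.2, 22.1 and 21.4 CPM in shRRM2/shp16. The treated groups overlapped each other and lay below control. Its log2 fold change was -0.78 ± 0.06 in shRRM2 (adjusted p 2.3e-14) and -0.87 ± 0.06 in shRRM2/shp16 (adjusted p 3.2e-16), both against control. Between the treated groups it was -0.09 ± 0.07 (adjusted p 0.29). Exons of DCK overlap those of MOB1B on the same strand, which was at 78.7 ± 4.2, 93.5 ± 8.58 and 86.9 ± 0.89 CPM in control, shRRM2 and shRRM2/shp16.

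SAMHD1, the triphosphohydrolase that degrades dNTPs, was at 32.6, 31.8 and 32.5 CPM in control, 21.1, 22.5 and 24.3 CPM in shRRM2 and 18.1, 18.2 and 19.8 CPM in shRRM2/shp16. It fell at each step with no overlap between groups. The log2 fold change was -0.51 ± 0.06 in shRRM2 against control (adjusted p 3.2e-09), -0.28 ± 0.07 in shRRM2/shp16 against shRRM2 (adjusted p 6.2e-04) and -0.79 ± 0.06 in shRRM2/shp16 against control (adjusted p 1.5e-14). Thus the transcript of the degrading enzyme was lower, as were those of RRM1, TYMS, DUT, TK1 and DCK. When limma was run on the 9 deposited RPKM columns without a filter, SAMHD1 between the treated groups was at -0.21 and not past the threshold (adjusted p 0.0672, range over all alternatives 3.3e-04 to 0.0672).

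TK2, the mitochondrial thymidine and deoxycytidine kinase, was at 27.4, 24.9 and 23.5 CPM in control, 34.0, 32.8 and 30.9 CPM in shRRM2 and 29.9, 27.1 and 26.0 CPM in shRRM2/shp16. It was highest in shRRM2, with shRRM2/shp16 overlapping control. On the log2 scale the difference was 0.35 ± 0.06 in shRRM2 against control (adjusted p 9.4e-06) and -0.23 ± 0.06 in shRRM2/shp16 against shRRM2 (adjusted p 0.0018). In shRRM2/shp16 against control it was 0.12 ± 0.07 and did not pass (adjusted p 0.104). That last difference was past the threshold without control replicate a (0.20, adjusted p 0.0159) and without shRRM2/shp16 replicate c (0.17, adjusted p 0.0412). It was also past it with limma on the 9 deposited RPKM columns at a pseudocount of 1 (0.18, adjusted p 0.0486) and on the 8 that match the counts at 1 (0.18, adjusted p 0.0228) and 0.1 (0.23, adjusted p 0.0316). These are 5 of 20 alternatives, over a range of adjusted p from 0.0159 to 0.432 among all alternatives. When limma was run on the 9 deposited RPKM columns with a pseudocount of 0.1, the step between the treated groups was not past it (-0.14, adjusted p 0.236, range over all alternatives 5.2e-04 to 0.360).

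DGUOK, the mitochondrial kinase of the purine deoxynucleosides, was at 44.0, 44.2 and 42.1 CPM in control, 43.5, 46.4 and 43.8 CPM in shRRM2 and 51.0, 52.1 and 47.8 CPM in shRRM2/shp16. Control and shRRM2 overlapped, and shRRM2/shp16 lay above both. The differences were 0.04 ± 0.05 in shRRM2 against control (adjusted p 0.55), 0.17 ± 0.05 in shRRM2/shp16 against shRRM2 (adjusted p 0.0024) and 0.21 ± 0.05 in shRRM2/shp16 against control (adjusted p 2.3e-04). Per length, TK1 was 16.8, 17.0 and 17.0 times as abundant as TK2 in control, 5.23, 5.51 and 5.71 times in shRRM2 and 4.67, 5.13 and 5.71 times in shRRM2/shp16. The ratio of cytosolic to mitochondrial thymidine kinase transcripts was thus lower in both treated groups, which overlapped each other.

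**Figure D3:**
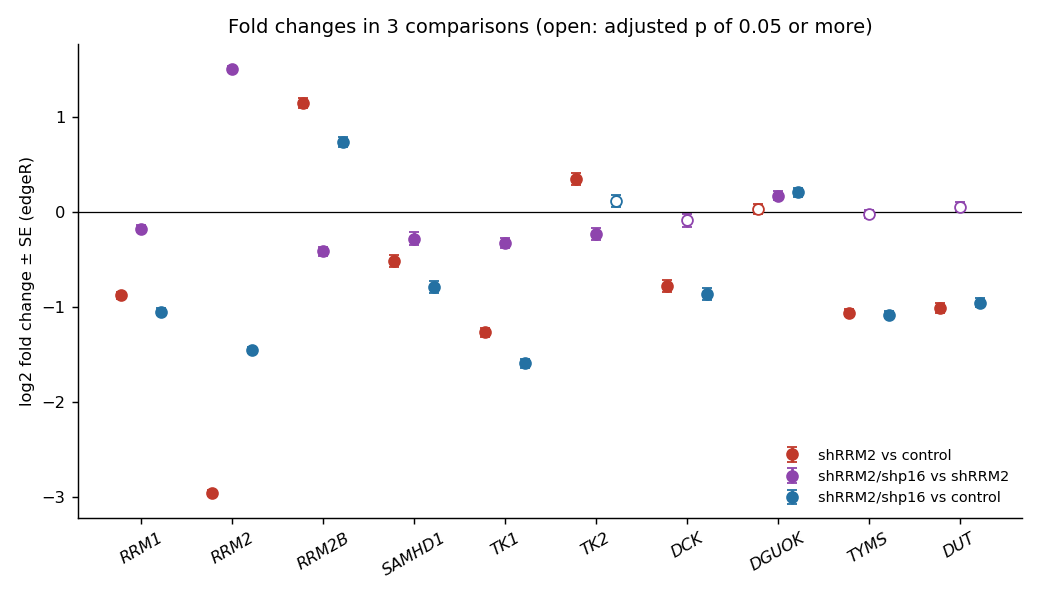
Log2 fold change ± SE from edgeR (vertical axis) of each gene (horizontal axis) in the 3 comparisons, with open circles where the adjusted p was 0.05 or more. RRM2 spans -2.96 in shRRM2 against control to 1.51 in shRRM2/shp16 against shRRM2, while TYMS, DUT and DCK have open circles near 0 in the latter.

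The order of the 10 genes by level per length also changed. In control it ran from RRM2 at 98.0 RPKM through TYMS at 63.6, TK1 at 59.7, RRM1 at 47.9, DGUOK at 29.9, DUT at 20.3, DCK at 12.04, RRM2B at 7.23 and SAMHD1 at 6.41 to TK2 at 3.53. Only the libraries of TYMS and TK1 overlapped among neighbours there. In shRRM2 the mitochondrial kinase DGUOK, at 30.6 RPKM, and TYMS, at 30.5, came first with overlapping libraries, and RRM2 was in the sixth place below RRM2B. That place rests on the counts, since RRM2 is above RRM2B in the deposited column of shRRM2 replicate c. In shRRM2/shp16 RRM2 at 35.8 and DGUOK at 34.6 RPKM came first and overlapped. TK2 and SAMHD1 were the lowest pair in both treated groups, with overlapping libraries.

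In shRRM2 against control 9 of the 10 genes passed the threshold, 2 higher and 7 lower, where 60.9% of all tested genes passed, 29.0% higher and 31.8% lower. Their median log2 fold change was -0.83, beside 0.00 for all tested genes, and 5 changed at least 2-fold, as did 10.1% of all. RRM2, whose fall was set by the design, is in this median and among the genes lower and changed at least 2-fold. It is also among those lower in shRRM2/shp16 against control. In shRRM2/shp16 against shRRM2 7 passed, 2 higher and 5 lower, where 61.1% of tested genes passed, 31.9% higher and 29.1% lower. The median was -0.13 beside 0.01 for all tested genes, and only RRM2 changed at least 2-fold, as did 11.8% of all. In shRRM2/shp16 against control 9 passed, 2 higher and 7 lower, where 62.4% of tested genes passed, 30.0% higher and 32.4% lower, with a median of -0.91 beside 0.01. The groups did not overlap for 9, 7 and 9 of the 10 genes, where this held for 63.6%, 64.7% and 66.2% of all tested genes. The counts of genes called were therefore near the background in shRRM2/shp16 against shRRM2. The comparisons share their libraries pairwise, so they are not independent of each other.

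The authors' deposited table compares shRRM2/shp16 with shRRM2 by their own test. At a q-value under 0.05 the authors' deposited table calls 2 of the 10 genes higher and 1 lower. It calls 7.77% of 64235 genes, a set that also holds those left out here by the filter on low counts. That share is not comparable with the 61.1% of tested genes given above. The genes called among the 10 are RRM2 with a log2 fold change of 1.64 (q 4.4e-04), DGUOK with 0.21 (q 0.0197) and SAMHD1 with -0.29 (q 8.4e-04). In the authors' deposited table RRM1, TK1, TK2 and RRM2B, all lower in the counts, are also negative, with q-values of 0.710, 0.0932, 0.153 and 0.460.

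Genes whose levels over the 9 libraries were most like those of the subunits were named from 9935 genes whose mean log2 CPM reached 3. With RRM2 these were the splicing factor gene SFPQ, the mitotic kinesin gene KIF20A and HNRNPL, with Pearson r of 0.999, 0.999 and 0.998. KIF20A went from 174 ± 2.09 CPM in control to 31.7 ± 0.34 in shRRM2 and 71.6 ± 1.39 in shRRM2/shp16. With RRM1 they were the mitotic kinase gene MELK (0.999), DIRAS3 (0.998) and ACTC1 (0.998), and MELK stood at 105 ± 2.05, 46.0 ± 0.84 and 38.6 ± 0.08 CPM. With RRM2B they were ZMAT3 (0.996), OGFRL1 (0.994) and TMEM30A (0.993), and ZMAT3 stood at 128 ± 11.6, 252 ± 9.64 and 202 ± 2.60 CPM. These correlations are descriptions over 9 libraries in 3 groups, so they mainly rank how closely group means follow each other. They do not compare the size of the changes. SFPQ, for example, went only from 421 CPM in control to 237 in shRRM2 and 319 in shRRM2/shp16.

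The other genes of dNTP metabolism were read from fixed lists, beside the shares of all tested genes past the threshold, 60.9% for shRRM2 against control and 61.1% between the treated groups. Of 15 tested nucleotide and nucleoside kinases, 3 were higher and 7 lower in shRRM2 against control, at a median change of -0.09 on the log2 scale, a count near that background. DTYMK, which phosphorylates the thymidylate that TYMS and TK1 make, fell from 69.9 ± 2.54 to 31.0 ± 2.33 CPM (-1.17, adjusted p 3.6e-23) and was at 37.6 ± 1.23 CPM in shRRM2/shp16. In shRRM2/shp16 against shRRM2, 6 kinases rose and 8 fell (median -0.21). AK4, a mitochondrial adenylate kinase, fell there by 0.95 on the log2 scale, ADK (adenosine kinase) by 0.86, and NME3 rose by 0.68.

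The salvage, deamination and nucleotidase list had 5 of 14 genes higher and 8 lower in shRRM2 against control, and 2 higher and 6 lower in shRRM2/shp16 against shRRM2. Beside the 60.9% and 61.1% of all tested genes, the latter count is near the background. HPRT1, which salvages purine bases, went from 25.6 ± 1.86 CPM in control to 14.6 ± 0.53 in shRRM2 and 14.4 ± 1.10 in shRRM2/shp16. NT5E, the ecto-5′-nucleotidase CD73, rose from 566 ± 1.89 to 700.3 ± 7.69 CPM in shRRM2 and was at 355 ± 5.51 in shRRM2/shp16. It was then below control (adjusted p 1.1e-25). The cytosolic nucleotidase gene NT5C2 rose in shRRM2 and fell in shRRM2/shp16 to a level that did not pass the test against control (adjusted p 0.27), at 77.2 ± 4.36, 116 ± 1.84 and 74.3 ± 1.86 CPM. Thymidine phosphorylase, TYMP, rose at both steps from a low level, with log2 fold changes of 0.49 (adjusted p 0.0134) and 0.75 (adjusted p 2.3e-05). Its control and shRRM2 libraries overlapped, at 3.24 ± 0.71 and 4.47 ± 1.24 CPM.

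Of 8 genes for dNTP pool sanitation 1 was higher and 4 lower in shRRM2 against control, and a single one passed, as higher, in shRRM2/shp16 against shRRM2. Of all tested genes 60.9% and 61.1% passed there, so the first count is near the background and the second below it. NUDT1, which hydrolyses oxidised purine nucleotides, went from 15.3 ± 1.07 to 7.58 ± 0.23 CPM and was at 8.48 ± 0.35 in shRRM2/shp16. Of 8 genes of the folate cycle that serves TYMS, 6 passed in shRRM2 against control and each of these was lower (median -0.35). In that comparison 31.8% of all tested genes were lower. MTHFD1, a folate cycle enzyme of the cytosol, fell from 131 ± 3.44 to 69.4 ± 2.89 CPM and was at 67.7 ± 1.29 in shRRM2/shp16.

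Of 7 genes for the electron donors of ribonucleotide reductase, 1 was higher and 3 lower in shRRM2 against control. GLRX (glutaredoxin) rose from 49.3 ± 1.68 to 82.3 ± 3.76 CPM and TXN (thioredoxin) fell from 159.7 ± 5.99 to 120.3 ± 10.4 CPM. Of 14 genes for mitochondrial DNA maintenance 3 were higher and 6 lower there, and 5 higher and 6 lower in shRRM2/shp16 against shRRM2. In shRRM2 against control both this count and that of the electron donors are near the 60.9% of all tested genes, and in the second comparison 61.1% of all passed. TFAM, which packages mitochondrial DNA, fell from 31.6 ± 2.07 to 19.3 ± 0.72 CPM and was at 33.0 ± 2.36 in shRRM2/shp16, and the helicase gene TWNK went from 16.1 ± 0.20 to 11.3 ± 1.25 and 20.6 ± 1.48 CPM.

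Regulators of these enzymes were mostly lower in shRRM2 than in control, 19 of 23 against 2 higher, with a median of -0.57, where 31.8% of all tested genes were lower and 29.0% higher. CCNF, the F-box protein that targets RRM2 for degradation, fell from 113 ± 4.25 to 30.2 ± 2.21 CPM and was at 41.9 ± 1.60 in shRRM2/shp16. E2F1 fell at both steps, at 35.4 ± 0.34, 21.0 ± 1.65 and 12.95 ± 0.27 CPM, and so did E2F7, at 84.6 ± 1.33, 60.9 ± 2.61 and 22.2 ± 1.60 CPM. E2F3 went the other way, rising from 42.9 ± 0.23 to 55.2 ± 3.50 CPM in shRRM2 (adjusted p 3.7e-08) and falling to 43.1 ± 1.82 in shRRM2/shp16 (adjusted p 4.7e-08). Of the regulators, 12 were higher and 8 lower in shRRM2/shp16 against shRRM2, beside 31.9% and 29.1% of all tested genes. E2F1 was lower in that comparison, while CDC20 went from 35.4 ± 2.14 to 54.8 ± 3.04 CPM and MYC from 34.1 ± 0.54 to 59.3 ± 1.28 CPM. RRM2 was also higher there, and the part of these regulators in its change was not tested.

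The S phase list had 18 of 20 genes lower and 2 higher in shRRM2 against control (31.8% and 29.0% of all tested genes), with a median of -0.91, beside the -0.83 of the 10 dNTP genes. In shRRM2/shp16 against shRRM2, 4 rose and 11 fell (median -0.25), beside 31.9% and 29.1% of all tested genes. MKI67 and TOP2A rose there by 0.27 and 0.74, while the cyclin genes CCNE1 and CCNE2 fell by 1.26 and 1.35. CCNE1 and CCNE2 were the 2 genes of the list that were higher in shRRM2 than in control. CCNE1 went from 7.87 ± 0.59 to 13.1 ± 0.72 CPM there, and CCNE2 from 11.5 ± 0.13 to 14.0 ± 1.11 CPM. All 20 were below control in shRRM2/shp16, where 32.4% of all tested genes were lower. In bulk RNA, fewer cells in S phase and less RNA per cell cannot be told apart.

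**Figure D4:**
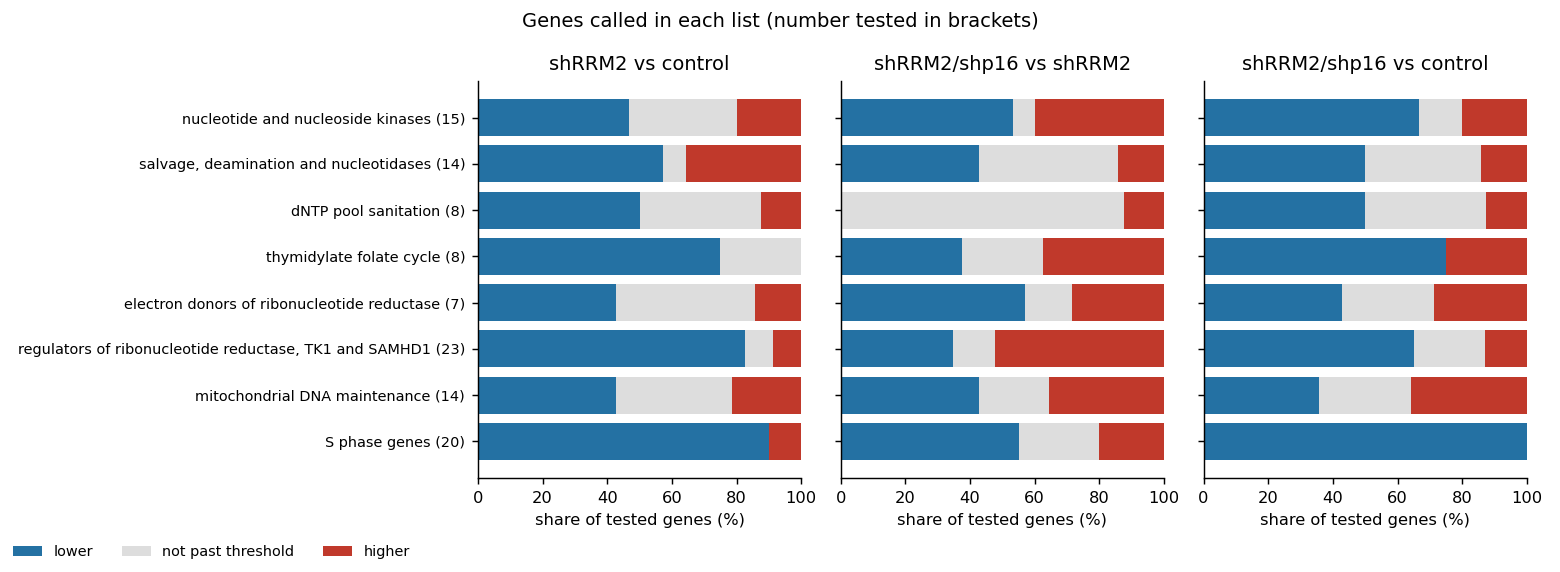
Share of tested genes in each list (horizontal axis, percent) that were lower, not past the threshold or higher in each of the 3 comparisons, with the number tested in brackets. The S phase list is lower for 18 of 20 genes in shRRM2 against control and for all 20 in shRRM2/shp16 against control. Of all tested genes 31.8% and 32.4% were lower in these comparisons.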

How the data were processed

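RNA was sequenced from 9 libraries. The submitters' processing notes name TopHat2 2.0.9, Cufflinks 2.0.2, Cuffdiff and the build GRCh38, with no role. The authors deposited raw counts per Ensembl gene, 1 file per library, each ending in the tally lines that HTSeq writes. The counter's settings and annotation release are not given in the sources used here. Tally lines were left out of library sizes. Ambiguous reads were 3.74% to 6.02% of uniquely aligned reads. Alignments that were not unique were 40.3% to 44.9% of the total of gene counts and tally lines per library. The authors also deposited a table of log2 RPKM values, on a scale of log2(x + 1) with x per base of the gene and per counted read of the library, as found from the counts. It also holds log2 fold changes, p-values and q-values of their own comparison, per the file headers. Gene lengths were those by which 8 of the 9 columns follow from the counts.

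The test was edgeR 4.0.16 under R 4.3.3 (filterByExpr, TMM, glmQLFit, glmQLFTest), fitted to all 9 libraries at once with 6 residual degrees of freedom. Each standard error is the log2 fold change divided by the root of F. The fit was tested on simulated data with known changes and independent libraries of a set spread, so that test does not cover technical replicates. Subunit ratios were compared by exact permutation over libraries. Read counts have no molecular identifiers, so counting error understates the error. Replicate pairs within groups differed by more than sampling noise (chi-square per degree of freedom 1.44 to 2.95). Alternatives were RLE factors, DESeq2 1.42.0, other filters, 6 libraries, a replicate block, each library left out and limma 3.58.1 on the RPKM values.

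The members and lists were chosen with earlier results of these data known. The named genes were the 10 members, CDKN2A, for each of RRM1, RRM2 and RRM2B the 3 genes of highest Pearson r, and from each list the 2 highest and 2 lowest past the threshold in the comparisons of shRRM2 with control and of shRRM2/shp16 with shRRM2, of which examples are given. ENOSF1, TYMSOS and MOB1B were added for their overlaps. CMPK2, AK6, NME2 and NT5M were listed and not tested. Some listed genes are not reported here.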

Additional observations from a re-analysis of the deposited data

How the results depend on the processing

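Of the 30 fold changes (10 genes in 3 comparisons), 23 kept direction and side of the threshold under all 20 alternatives each. The number of genes called in shRRM2/shp16 against shRRM2, 7 from the counts, was 4 with limma on log2(RPKM + 1) of the 9 deposited columns without a filter, where RRM2B, SAMHD1 and TK2 were not past the threshold. In shRRM2 against control it was 9 under each alternative, and in shRRM2/shp16 against control 9 or 10. Of the 5 differences that had not passed, DGUOK, DUT and TYMS changed sign under some alternatives, while DCK between the treated groups and TK2 in shRRM2/shp16 against control kept theirs. DGUOK in shRRM2 against control was -0.0041 without a filter. DUT between the treated groups was -0.0057 with limma at a pseudocount of 1, with or without the filter, and -0.0056 at 0.1. TYMS between them was 0.0103 without shRRM2 replicate b and 0.0072 without shRRM2/shp16 replicate c, over a range of -0.0432 to 0.0103 when each library was left out. In the 8 matching RPKM columns, an alternative added after seeing the data, it was 0.0150 at a pseudocount of 1 and 0.0155 at 0.1.

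Without division by length the RRM2 share was 92.4%, 41.2% and 72.7% in control, shRRM2 and shRRM2/shp16, and RRM1 per small-subunit transcript 0.381, 0.723 and 0.396. With the deposited RPKM values the share in shRRM2 was 52.6% and the ratio 0.838.

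The labels do not say what the letters a, b and c share, and libraries of the same letter did not deviate from their group means together (correlations of -0.0198 to 0.0486 over genes). With the replicate block 9, 7 and 9 genes were called, as without it. Each of the 10 genes had at least 332 counts in every library, while CDKN2A had 79 to 142, which limits the precision of its change.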
